A study of Mus musculus with 4 samples.

Results

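Tbp and 8 other genes that are commonly used to normalize quantitative PCR (qPCR), Actb, B2m, Ppia, Ywhaz, Gusb, Polr2a, Tfrc and Hprt, were examined in RNA-seq counts of fetal mouse brown adipose tissue. They were chosen by name from a list of reference genes, with Tbp included because the study normalized its qPCR to it, and were 9 of the 22298 genes in the count table. All 9 passed the filter on low counts. The study asked how high fructose intake by pregnant dams changes brown fat of the offspring. The control group held 2 libraries from fetuses of dams without added fructose, and the fructose group held 2 libraries from fetuses of dams given 20% fructose, all C57BL/6 by the labels (C57BL/6J in the methods) and taken on the last day of gestation. The number of fetuses behind each library was not given in the sources used here, so that the spread between libraries may be in part technical.

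The libraries held 18542897 to 23645147 counted reads. Brown adipocyte markers were present, with the uncoupling protein gene Ucp1 at 9606 to 12425 CPM (counts-per-million, that is counts scaled to a common library total). The mitochondrial share of counts was 5.89% and 6.49% in control and 10.8% and 11.2% in fructose. All 4 labels give the sex as male, but 4 Y-linked genes summed to 422 and 390 counts in control and to 0 in both fructose libraries (a count of 0 allows up to 3 counts), so that sex by these genes and fructose cannot be told apart. Markers of other cells also moved with the groups: summed CPM of 13 skeletal muscle markers was 240.1 and 310.1 in control, against 716 and 524 in fructose, while that of 10 erythroid markers was 19206 and 15296 in control and 11767 and 12142 in fructose. The 12 macrophage and leukocyte markers summed to 263 and 197 CPM in control and to 199 and 210.3 CPM in fructose. The part of these shifts in the values below was not tested. In bulk tissue, fewer cells of a type and less RNA per cell cannot be told apart.

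A reference gene in qPCR is one whose transcript is taken as constant, so that the signal of each target is divided by it. Any change of the reference is then passed, with the opposite sign, to every target. The 9 genes serve unrelated processes. Tbp encodes the TATA-box binding protein, a subunit of the general factor TFIID, and Polr2a encodes the largest subunit of RNA polymerase II. Actb encodes cytoplasmic beta-actin, B2m the light chain of MHC class I molecules, and Tfrc the transferrin receptor that takes up iron. Ppia encodes cyclophilin A, a prolyl isomerase that helps proteins to fold, and Ywhaz a 14-3-3 adaptor that binds phosphorylated proteins. Gusb encodes the lysosomal hydrolase beta-glucuronidase, and Hprt the enzyme that salvages purine bases.

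Because Tbp is known for binding TATA boxes, the promoters of the pair of transcription genes and of Ppia, the 1 member called changed (below), are shown from RefSeq (GRCm38.p6), each running from 250 bases before to 50 bases after the annotated start on the gene's strand. Capitals mark TATAAA, which was searched on both strands.
Tbp, chr17:15499638-15499937, plus strand: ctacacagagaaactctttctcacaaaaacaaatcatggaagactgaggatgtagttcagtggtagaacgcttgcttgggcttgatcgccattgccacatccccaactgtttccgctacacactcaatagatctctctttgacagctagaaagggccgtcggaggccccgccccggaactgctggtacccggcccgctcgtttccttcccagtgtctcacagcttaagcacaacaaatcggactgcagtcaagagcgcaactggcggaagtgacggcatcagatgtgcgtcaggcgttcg
Polr2a, chr11:69758584-69758883, minus strand: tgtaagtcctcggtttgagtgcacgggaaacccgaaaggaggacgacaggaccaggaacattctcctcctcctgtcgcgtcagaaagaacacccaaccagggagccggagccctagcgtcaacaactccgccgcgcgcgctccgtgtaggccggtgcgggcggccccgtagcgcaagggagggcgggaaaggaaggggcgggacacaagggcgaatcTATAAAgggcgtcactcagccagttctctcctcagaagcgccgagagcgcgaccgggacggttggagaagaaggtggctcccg
Ppia, chr11:6415617-6415916, plus strand: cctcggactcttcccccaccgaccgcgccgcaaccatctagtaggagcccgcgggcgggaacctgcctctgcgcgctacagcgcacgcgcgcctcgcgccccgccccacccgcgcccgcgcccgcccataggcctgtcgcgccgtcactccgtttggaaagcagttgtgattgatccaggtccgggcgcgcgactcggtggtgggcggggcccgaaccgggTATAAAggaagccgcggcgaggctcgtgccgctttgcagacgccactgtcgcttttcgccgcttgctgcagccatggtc

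TATAAA began at position -33 from the start of Polr2a and at -29 from that of Ppia, on the strand of the gene. The Tbp window held no TATAAA. Windows were found for 7 of the 9 members, Actb and Ywhaz being the others. B2m held the motif on the reverse strand at -152, and no match was found for Gusb, Hprt or the pair of Tfrc windows. Of all 32851 promoter windows of this length, 4473 (13.62%) held it. Only the exact TATAAA was searched, and TATA-like strings, such as tatataa in the B2m window, were not counted. A match describes letters in the window and not a site in use.

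Some reads of Tbp, Ppia and Ywhaz may not be separable from those of other genes, depending on how reads were counted. The Tbp gene (chr17:15499888-15528379, plus strand) shares 8094 bases of its span with Pdcd2 on the opposite strand, and 1 of 12 annotated Tbp transcripts runs over all 2582 exon bases of Pdcd2, 19.0% of the exon bases of Tbp. The strand setting of the counting was not given in the sources used here, so that reads of the shared stretch could go to either gene. Pdcd2 had 311 and 340 counts in control and 278 and 351 in fructose (log2 fold change -0.40, adjusted p = 0.053, edgeR). The sum of Tbp and Pdcd2 was 32.1 and 31.3 CPM in control and 23.3 and 27.1 CPM in fructose. It was lower in both fructose libraries, as were 31.6% of all genes tested, and the sum itself was not tested. Ppia has 22 genes with a stretch of at least 95% identity over 100 bases, of which 19 are pseudogenes, and 2 of the 22 were in the count table. Ywhaz has 2 such pseudogenes, neither in the table, and none was found for the other members. The first 90 coding bases of Ppia and the matching stretch of the pseudogene Gm12728 are shown because they differ at 1 base, in capitals.
Ppia: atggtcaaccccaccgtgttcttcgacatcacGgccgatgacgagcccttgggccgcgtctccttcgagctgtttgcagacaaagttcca
Gm12728: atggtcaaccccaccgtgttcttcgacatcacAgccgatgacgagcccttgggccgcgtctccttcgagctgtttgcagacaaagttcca

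Gm12728 was given 0 and 0 counts in control and 1 and 0 in fructose. The other counted gene, Gclm, had 650 to 819 counts. How reads that match several places were counted is not given in the sources used here.

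The members spanned a wide range of levels. Per kilobase of transcript, Ppia was highest at 1160 CPM per kb, followed by Actb at 351, B2m at 117 and Ywhaz at 47.1. These 4 did not overlap their neighbours in the order in any library. Polr2a (18.1 CPM per kb), Hprt (17.3), Tfrc (12.8) and Gusb (10.7) followed, and each of them overlapped the next in this group over the 4 libraries. Tbp was the lowest member at 6.28 CPM per kb, from 5.33 to 7.58, below every library of Gusb.

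**Figure D1:**
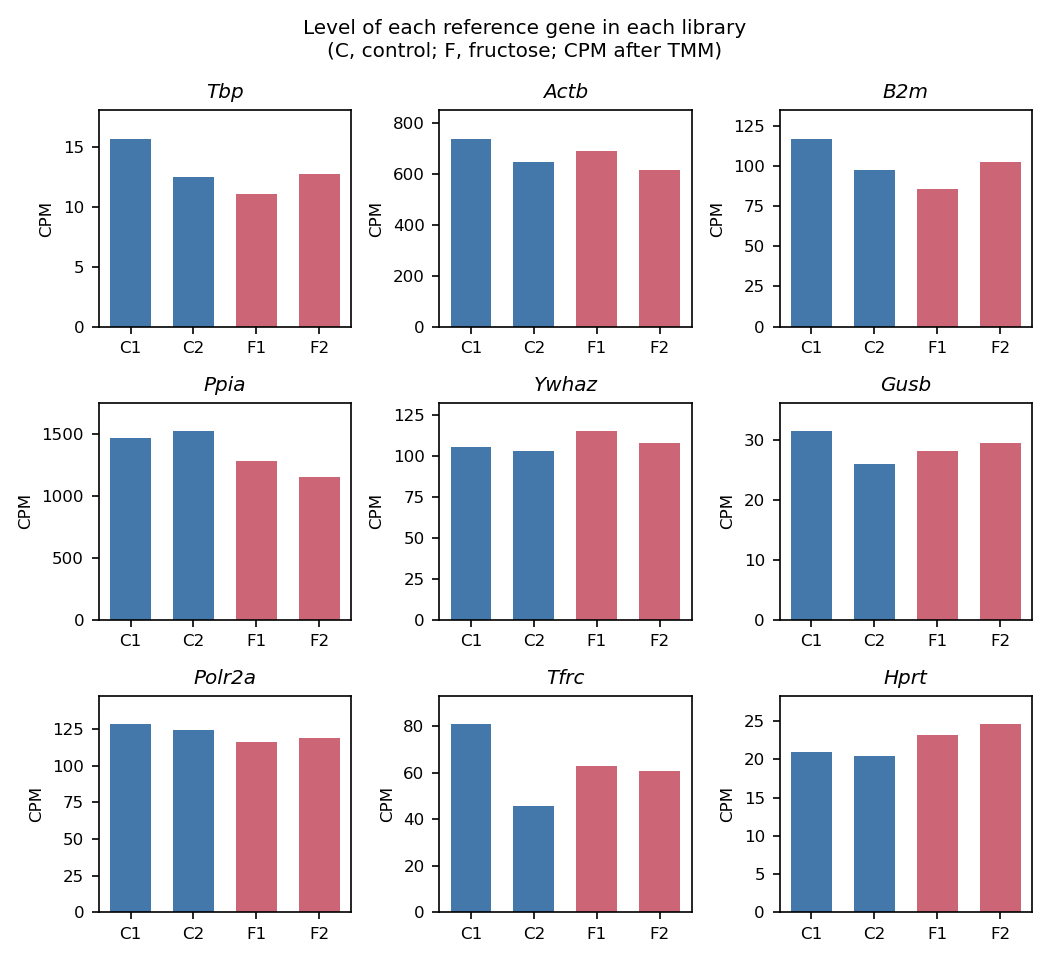
CPM (y axes, from 0, TMM-scaled) of each of the 9 members in the 2 control and 2 fructose libraries, 1 bar per library. Tfrc and Tbp vary most between libraries, Tfrc from 45.8 to 80.9 CPM, whereas Polr2a stays between 116 and 128 CPM.

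Of the genes of transcription, Tbp had 297 and 225 counts in control and 249 and 312 in fructose. This was 15.7 and 12.5 CPM in control and 11.0 and 12.7 CPM in fructose. Control replicate 1 was the highest library, and control replicate 2 lay within the range of the fructose group. Tbp had a log2 fold change (fructose against control) of -0.25 ± 0.16 (SE, n = 2 per group), with a 95% interval of -0.59 to 0.10 and an adjusted p of 0.27 (quasi-likelihood test of edgeR, Benjamini-Hochberg over 12888 genes). The interval holds no change as well as a decrease of more than 0.5. Without control replicate 1 the log2 fold change was -0.07, and without control replicate 2 it was -0.40. Polr2a had 128 and 124 CPM in control and 116 and 119 CPM in fructose, with a log2 fold change of -0.10 ± 0.08 (adjusted p = 0.36, edgeR). Both fructose libraries lay below both control libraries, and the test was not passed.

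Of the genes of protein folding and signalling, Ppia was the 1 member called changed at an adjusted p under 0.05, against 26.2% of all genes tested called changed and 10.7% called lower. It had 1471 and 1523 CPM in control and 1281 and 1153 CPM in fructose. Both fructose libraries were lower, and the log2 fold change was -0.30 ± 0.09 (95% interval -0.50 to -0.10, adjusted p = 0.031 by edgeR, n = 2 per group). DESeq2 gave an adjusted p of 0.0069 for Ppia. The call was lost without fructose replicate 2 (log2 fold change -0.22, adjusted p = 0.31, with the spread from the control pair alone), with scaling to library size only (-0.24, adjusted p = 0.054), and after removal of the trend of fold change with transcript length (-0.11) or GC content (-0.17) by edgeR. Fold changes followed both properties across genes, with a Spearman's rho of 0.47 for length and -0.52 for GC content. With the length trend removed, 2 members were called, Polr2a (-0.44) and Hprt (0.37), against 18% of all genes tested by edgeR. With the GC trend removed, 3 members were called, B2m (-0.72), Tfrc (-0.64) and Hprt (-0.41), against 15.5% of all genes tested. With both trends removed, 3 members were called, all lower (B2m at -0.42, Polr2a at -0.30 and Tfrc at -0.71 by edgeR), against 7.43% of all genes tested, and Ppia was at -0.01. Ywhaz had 105 and 103 CPM in control and 115 and 108 CPM in fructose. Both fructose libraries were higher, with a log2 fold change of 0.10 ± 0.08 (adjusted p = 0.39, edgeR).

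Of the genes of the cell surface and cytoskeleton, Actb had 739 and 649 CPM in control and 689.7 and 615 CPM in fructose. B2m had 117 and 97.6 CPM in control and 85.9 and 102 CPM in fructose. The groups overlapped for both genes, with log2 fold changes of -0.09 ± 0.10 for Actb and -0.19 ± 0.11 for B2m (adjusted p = 0.53 and 0.21, edgeR). B2m was at -0.72 with the GC trend removed (adjusted p = 0.00078, edgeR) and at 0.05 with the length trend removed. Tfrc had 80.9 and 45.8 CPM in control and 62.9 and 61.0 CPM in fructose. The pair of control libraries lay on either side of the fructose libraries, and the log2 fold change was -0.03 ± 0.18 (95% interval -0.44 to 0.37, adjusted p = 0.91, edgeR). Tfrc changed direction with the control library kept, with a log2 fold change of 0.44 without control replicate 1 (adjusted p = 0.00072, edgeR; 30.6% of genes called) and of -0.39 without control replicate 2 (adjusted p = 0.0014, edgeR; 26.7% of genes called). In each of these fits the spread came from the fructose pair alone, which lay close together, and the lone control library was assumed to vary like it, so that neither value is read as a change. B2m was at -0.32 without control replicate 2 under the same limit (adjusted p = 0.0077, edgeR). Erythroid precursors are known for high Tfrc. The order of Tfrc over the libraries was not that of the erythroid sum given above: control replicate 1 was highest in both, but control replicate 2 had the lowest Tfrc and the second highest erythroid sum. The part of erythroid RNA in the Tfrc value was not tested.

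Of the metabolic enzymes, Gusb had 31.5 and 26.0 CPM in control and 28.3 and 29.5 CPM in fructose. The fructose libraries lay between the control libraries, and the log2 fold change was 0.01 ± 0.11 (adjusted p = 0.98, edgeR), with a 95% interval of -0.24 to 0.25. Hprt, which is X-linked, had 21.0 and 20.5 CPM in control and 23.1 and 24.6 CPM in fructose. Both fructose libraries were higher, with a log2 fold change of 0.20 ± 0.11 (adjusted p = 0.20, edgeR). Its direction and call turned with the trends above, being called higher with the length trend removed (0.37, adjusted p = 0.036, edgeR) and lower with the GC trend removed (-0.41, adjusted p = 0.029, edgeR). The 413 X-linked genes tested had a median log2 fold change of 0.12, against 0.00 for all genes.

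In all, the groups did not overlap in CPM for 4 members, Ppia and Polr2a lower and Ywhaz and Hprt higher in fructose, against 65.1% of all genes tested. No member passed the pair of thresholds used in the methods (unadjusted p under 0.05 and a fold above 1.3), which 23.8% of genes tested passed here. With 2 libraries a group, an exact two-sided permutation test of a single gene cannot go below p = 0.333, so that the p-values rest on the spread shared over genes. A p that misses the threshold does not show that a member was constant.

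**Figure D2:**
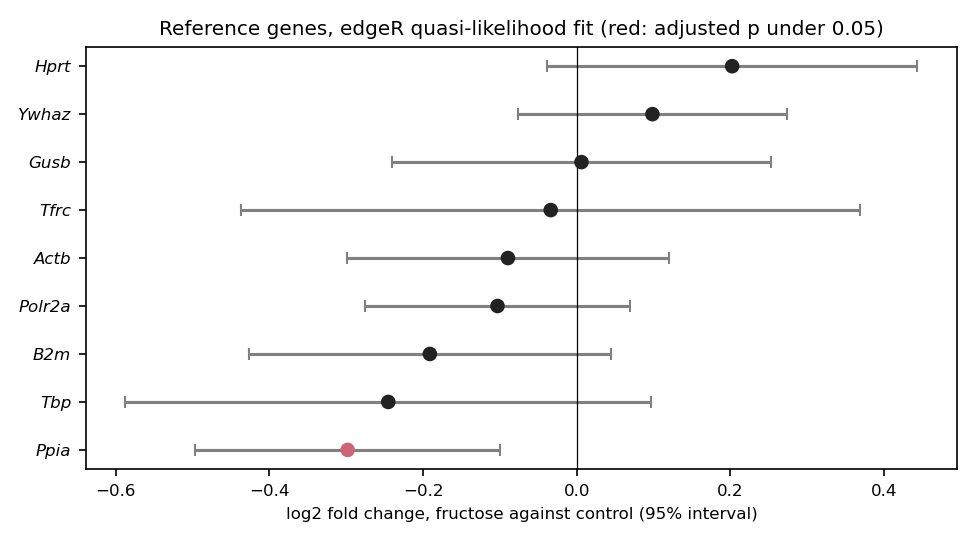
Log2 fold change of each member, fructose against control (x axis), as a point with its 95% interval from edgeR (2 libraries a group), and the line at 0 as no change. Ppia, in red, has an interval of -0.50 to -0.10, and the intervals of the other 8 members include 0.

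The members differed in spread within groups. The SD of log2 CPM within groups was lowest for Polr2a (0.03), Hprt (0.05) and Ywhaz (0.05), and was 0.08 for Ppia, 0.13 for Actb, 0.14 for Gusb and 0.18 for B2m. Tbp had rank 8 at 0.19 and Tfrc rank 9 at 0.41. Among all genes tested, whose median was 0.12, the SD of Tbp lay at the 70.5th percentile, that of Tfrc at the 92.2nd and that of Polr2a at the 5.26th. Counting error limits this reading for the low members: with 225 to 312 counts, Tbp has an SD of 0.088 from counting alone, and Hprt, with 0.068 from counting, had a measured SD below it (0.048). Counting errors of Ppia (0.0086) and Actb (0.012) were far smaller than their spread. That of Polr2a (0.029) was close to its spread (0.030).

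The range over all 4 libraries takes in the difference between groups as well. It was 0.14 on the log2 scale for Polr2a, 0.16 for Ywhaz, 0.26 for Hprt and 0.27 for both Actb and Gusb. Ppia followed at 0.40, B2m at 0.45, Tbp at 0.51 and Tfrc at 0.82, against a median of 0.44 over all genes tested. The range of 6 of the 9 members was below the middle of all genes, and that of 5 was below the median of 0.35 for the 7811 genes of at least 10 CPM, a level that every member reached. Within groups, 4 members had an SD below the median of those genes (0.089). Among all genes tested, the range placed Tbp at the 58.0th percentile and Tfrc at the 79.2nd. Thus Ppia had rank 4 within groups and rank 6 over all libraries, whereas Polr2a had rank 1 on both measures. These ranks were not taken with the trends of length and GC content removed. Polr2a was called lower with the length trend removed (-0.44, adjusted p = 0.0029, edgeR) and with both removed (-0.30, adjusted p = 0.036, edgeR). As a coefficient of variation of CPM over the libraries, the members ran from 4.46% for Polr2a and 4.83% for Ywhaz to 15.1% for Tbp and 22.9% for Tfrc.

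The geNorm measure M, the mean SD of a gene's log2 count ratios with each of the other members, does not depend on library scaling. A low M marks a gene that keeps its ratio to the others. M was lowest for Gusb (0.159) and Polr2a (0.160), followed by Actb (0.168), B2m (0.187), Ywhaz (0.192) and Tbp (0.198), and was highest for Hprt (0.226), Ppia (0.240) and Tfrc (0.307). The place of Gusb rested on the trends: with both removed, its M was 0.243, rank 8 of 9. Tbp had rank 6 of 9 and ranked from 5 to 8 when single libraries were left out or trends were removed. Stepwise removal of the gene with the highest M took out Tfrc first, then Ppia, Hprt, Ywhaz, Actb, Gusb and Polr2a, and left Tbp and B2m as the last pair. Tbp and B2m were therefore kept by ratio although they had ranks 8 and 7 by range. The rank of Tfrc rested on its pair of control libraries: it was rank 9 with all libraries and rank 5 without control replicate 2.

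**Figure D3:**
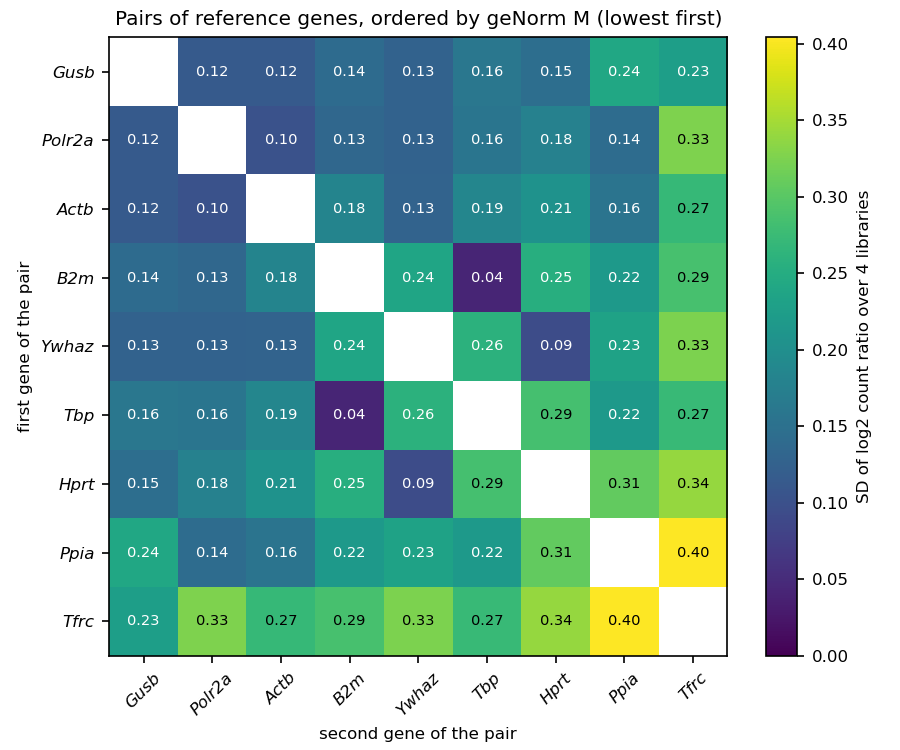
SD over the 4 libraries of the log2 count ratio of each pair of members (colour scale, darker values as given by the colour bar), with members ordered on both axes by geNorm M. Tbp with B2m has the smallest SD (0.042) and Ppia with Tfrc the largest (0.40).

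The Tbp to B2m log2 count ratio was -2.90 and -2.97 in control and -2.96 and -3.01 in fructose. It varied less (SD 0.042) than the counting error of Tbp alone, and the groups differed by -0.05. Tbp and B2m were both highest in control replicate 1 and both lowest in fructose replicate 1. Ywhaz with Hprt (SD 0.094) and Actb with Polr2a (SD 0.10) were further close pairs. For 17 of the 36 pairs the groups did not overlap, among them 3 of the 8 pairs with Tbp, those with Gusb, Ywhaz and Hprt. Of single genes tested, 65.1% did not overlap in CPM, and ratios over all genes were not taken. For 2 against 2 values in random order the share is 0.333, so that the counts of pairs are a description only. These pairs share members and libraries, and no test was made of them.

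Scaling all libraries to 1 member shows what the choice of reference does to the rest of the table. With TMM scaling, 3380 genes were called, 2001 higher and 1379 lower in fructose (59.2% higher). Scaled to Tbp, 2119 genes were called (16.4% of those tested), 2101 higher and 18 lower (99.2% higher), and the median log2 fold change of all genes moved from 0.00 to 0.24. Of the 1379 genes lower by TMM, 13 were called lower with Tbp as reference, and of the 2001 higher, 1679 were called higher. A further 422 genes were called higher with Tbp scaling and not by TMM. Division by Tbp passes on, with the opposite sign, its own log2 fold change of -0.25 (adjusted p = 0.27, edgeR). That value was -0.07 without control replicate 1, and Tbp has an SD of 0.088 from counting alone. The scaling took the Tbp counts as exact and was not repeated with libraries left out. The split is therefore not read as a property of Tbp as a reference. No gene was called in opposite directions by TMM and by any of the member scalings.

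The other references moved the split by different amounts. Scaled to Ppia, 4457 genes were higher and 62 lower, with a median log2 fold change of 0.30. Scaled to B2m, 1903 were higher and 21 lower, and scaled to Actb, 1825 were higher and 84 lower. Those references gave nearly all calls in the direction higher. Ywhaz and Hprt turned the split, with 1615 higher and 2502 lower for Ywhaz and 1344 higher and 3842 lower for Hprt. Ywhaz kept 88.1% of the TMM calls, Hprt 80.4%, Polr2a 72.9% (2662 higher and 462 lower), Ppia 60.9% and Actb 53.0%. Tbp kept 50.1%, B2m 48.3%, Gusb 45.1% and Tfrc 1.09%. Gusb left the median of all genes at -0.01 but gave 1418 genes higher and 160 lower. Scaled to Tfrc, only 38 genes were called (34 higher and 4 lower), and the biological coefficient of variation of the fit rose from 8.52% with TMM to 28.7%. For Tbp it was 16.1%. The geometric mean of all 9 members gave 2062 genes higher and 201 lower, with a median of 0.07. Library size alone, without any reference gene, gave 2242 higher and 859 lower.

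**Figure D4:**
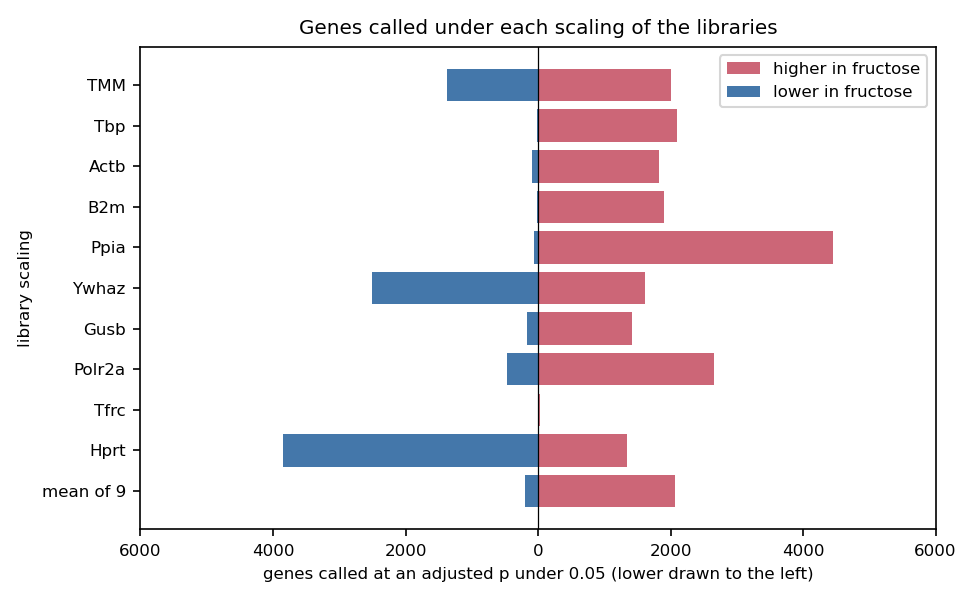
Number of genes called higher (right) and lower (left) in fructose by edgeR at an adjusted p under 0.05, with libraries scaled by TMM, by each member or by the mean of the 9 members. Tbp gives 2101 genes higher and 18 lower, Hprt 1344 higher and 3842 lower, and Tfrc 34 higher and 4 lower.

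The genes measured by qPCR in the study were looked up in the table. Their list, taken from the primers, held 36 genes, and 32 passed the filter on low counts. The paper does not name each of them in its fetal results. By TMM, 14 were higher and 6 lower in fructose, the latter being Adipoq, Cebpa, Cebpb, Cox5b, Cox8b and Cpt1b. Scaled to Tbp, 15 were higher and none was lower by edgeR, and 13 were called in the same direction both ways. The sign of the log2 fold change differed for 7 genes, and 26 were positive with Tbp scaling against 19 by TMM. Adipoq, the gene of the adipokine adiponectin, had a log2 fold change of -0.28 by TMM (adjusted p = 0.038, edgeR) and of -0.04 scaled to Tbp (adjusted p = 0.98, edgeR). Cox8b, a subunit of cytochrome oxidase of brown fat, went from -0.44 (adjusted p = 0.0099, edgeR) to -0.18 (adjusted p = 0.84, edgeR). Ppargc1a, the gene of a coactivator of mitochondrial genes, was called under both, with 1.16 by TMM and 1.38 scaled to Tbp. Myf6, a myogenic factor gene, had a larger value but was not called by TMM (1.70, adjusted p = 0.084, edgeR). It was called with Tbp scaling (1.93, adjusted p = 0.023, edgeR). Myf6 had only 1 and 8 counts in control and 21 and 17 in fructose, so that both values are imprecise. Mlxipl, which encodes the carbohydrate response factor ChREBP, was 0.42 by TMM and was called, and 0.66 scaled to Tbp and not called. These values come from sequencing counts and not from qPCR, and do not show what qPCR scaled to Tbp gives. In its own fetal qPCR, normalized to Tbp, the paper reported Adipoq, Cebpa, Fabp4 and Pparg as lower. It reported Cebpb as not affected, along with Cidea, Prdm16 and Ucp1. As higher it reported Chrebp, Fasn, Acc1 (Acaca), Acly, Glut5 (Slc2a5), Igf2, Igf2bp3, Mef2c, Myod, Myog, Myh1, Myh4 and Myh7. In the counts, Fasn, Acaca, Acly, Slc2a5, Igf2bp3, Mef2c, Myog, Myh1 and Myh7 were called higher under both scalings. Igf2 was called under neither, and Myh4 and Myod1 did not pass the filter. The numbers of samples in the qPCR differed from those of the libraries.

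Among 32 further reference genes, 2 were higher and 11 lower by edgeR (15.5% and 10.7% of all genes tested), with a median log2 fold change of -0.22 (all genes 0.00). The lower ones included ribosomal protein genes, with Rpl37a at -0.62 and Rpl19 at -0.57, and the ATP synthase subunit gene Atp5b at -0.32. Top1, the topoisomerase gene, was the most changed at 0.87. Gapdh, a glycolytic enzyme gene, had a log2 fold change of -0.23 (adjusted p = 0.16, edgeR). By M over all 41 genes, Polr2a ranked 2nd, Ppia 11th, Actb 12th, Gusb 17th, Ywhaz 18th, B2m 21st, Tbp 23rd, Hprt 33rd and Tfrc 40th. The median of these 32 genes was 0.017 when scaled to Tbp and 0.082 when scaled to Ppia, so that its direction turned with either reference. Ppib ranked 1st although it was itself called lower (-0.24, adjusted p = 0.044, edgeR), and Top1, with an M of 0.66, ranked last. A low M in this list marks a gene that moved with the others and not a constant level. Ppia was thus rank 8 of the 9 by M among the members but rank 2 of them against the wider list, so that the order depends on the genes compared.

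The pathways around the members were described with the same fit. Of 27 genes of TFIID and other TBP partners, 5 rose and 3 fell, with a median of 0.13. Over all genes tested, 15.5% were called higher and 10.7% lower by edgeR, and the counts of this and the following lists, with at most 27 genes each, are given beside these shares as a description that sets no list apart. Taf1d (1.42), Bdp1 (1.17) and Taf1 (1.12) rose, whereas Drap1 (-0.52), Gtf2a2 (-0.37) and Taf10 (-0.30) fell. Taf1 encodes the largest TFIID subunit and Bdp1 a part of the RNA polymerase III factor TFIIIB, which also holds TBP. Of 12 further RNA polymerase II subunits, none rose and 4 fell by edgeR (median -0.28), with Polr2i at -0.46, Polr2e at -0.38 and Polr2c at -0.29, while Polr2a did not pass the test. Of 11 further cyclophilins, 2 rose and 1 fell, the latter being Ppib at -0.24. Of 6 further 14-3-3 genes, Ywhab rose (0.31).

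Of 15 genes of cytoplasmic actin and its partners, 2 rose (Actr2 at 0.98 and Actr3 at 0.31, subunits of the Arp2/3 complex) and 2 fell (Pfn1 at -0.37 and Cfl1 at -0.25). Of 13 genes of the MHC class I pathway, the peptidase gene Erap1 rose (0.82) and H2-T23 fell (-0.61). Of 13 genes of iron uptake and storage, 3 rose, including Tfr2 (0.79) and the iron regulatory gene Ireb2 (0.66), and 2 fell, including the ferritin light chain gene Ftl1 (-0.42). Of 16 lysosomal genes, most of them hydrolases, Ids rose (0.76). Of 14 genes of purine salvage and synthesis, Gmps rose (0.39), and Impdh2 (-0.34) and Paics (-0.27) fell. The directions of most of these medians depend on the reference. Scaled to Hprt, the median of the TBP partners was -0.080 and that of the 14-3-3 genes -0.11, against 0.13 and 0.09 by TMM. Scaled to Tbp, medians were positive for the actin partners (0.10), the MHC class I pathway (0.10), the cyclophilins (0.10) and the lysosomal genes (0.10). They were also positive for the iron genes (0.16) and the purine genes (0.064). By TMM, all of these medians were between -0.17 and -0.05. The median of the RNA polymerase II subunits was -0.04 with Tbp and 0.019 with Ppia as reference. Of the marker lists, 12 of 13 skeletal muscle genes rose (median 1.71), 5 of 10 erythroid genes fell (median -0.53), 3 of 12 brown adipocyte genes rose and 2 fell, and 1 of 12 macrophage and leukocyte genes rose and 2 fell. The muscle median stayed positive (1.97 scaled to Tbp and 1.52 scaled to Hprt) and the erythroid median negative (-0.29 and -0.73).

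The genes whose CPM pattern over the 4 libraries was nearest to that of Tbp, by the distance between their centred log2 CPM among 7810 genes of at least 10 CPM, were Plcd3 (0.033), Angptl4 (0.035), Dhx35 (0.039), Gaa (0.050) and Rrs1 (0.050). This likeness rests on 4 values a gene. Several genes varied far less than the members. Among 3009 genes of at least 50 CPM, Col18a1 had the smallest range over the libraries (0.022), followed by Rtn3 (0.023), Klhdc7a (0.028), Cnih1 (0.029) and Apoo (0.032). In that order Polr2a was 336th, Ywhaz 427th, Actb 1146th, Ppia 2091st, B2m 2355th and Tfrc 2932nd. These genes were picked as the smallest of 3009 ranges, and no test was made of them.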

How the data were processed

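Fetal brown adipose tissue RNA was sequenced in 4 libraries. The deposited values are raw read counts per gene, which the authors made after filtering reads with fastp and mapping to mm10 with Bowtie2 and TopHat2, with StringTie among the tools in the submitters' processing notes. Per the methods, transcript files were merged with Cuffmerge and counts per gene were taken from the merged annotation. The counting program, strand setting and release of the reference annotation are not given in the sources used here. The 4 single-library tables held the same counts as the combined table, which was used. Ensembl ids were matched to symbols in GENCODE M21 (GRCm38), and 43 ids had no match. Transcript length and GC content came from 1 transcript per gene, with the middle length among the best-ranked ones.

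Counts of 12888 genes that passed edgeR's filterByExpr were tested with edgeR 4.0.16 in R 4.3.3 (quasi-likelihood test, TMM scaling, Benjamini-Hochberg adjustment, threshold 0.05), with group as the only term. The study's methods call genes at p under 0.05 and a fold above 1.3, which was counted as well. CPM are TMM-scaled, and log2 CPM used a prior count of 2. Intervals are at 95%, and counting errors cover counting error only. Ratios of members were taken on raw counts. DESeq2 1.42.0, other scalings, trend removal (lowess, span 0.3), a replicate block and leaving out each library were alternatives. Python 3.11.15 was used for sequences and figures. The code was tested on simulated data. Libraries of 1 group differed beyond counting noise (chi-square per degree of freedom 11.4 and 7.47), and each counted as 1 sample. The members and gene lists were chosen with earlier results of these data known. Named genes are all members and, from each list, up to 3 genes of the highest level and up to 3 called genes of the largest change, the 5 nearest to Tbp and the 5 of the smallest range. The qPCR targets given with values, and genes outside this rule, were chosen after their values were seen.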

Additional observations from a re-analysis of the deposited data

How the results depend on the processing

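The log2 fold changes of Tbp, Ppia and Polr2a were negative in all 15 settings that did not scale to members, and Tbp was called in none of them. The count of members called was 0 with library size only, 2 with the length trend removed (1 of them higher), 3 with the GC trend or both trends removed (3 lower), also with the replicate block, and 0 to 3 without single libraries (0 to 1 higher and 0 to 3 lower). It was 0 when scaled to Tbp, Actb, B2m, Gusb, Polr2a, Tfrc or the mean of 9 members, 2 when scaled to Ppia (2 higher, 0 lower) and 4 when scaled to Hprt (4 lower). Of all 12888 genes tested, 3101 were called with library size only and 2119 scaled to Tbp. Scaled to Ppia, Hprt and Tfrc, 4519, 5186 and 38 were called. The share was 18% with the length trend removed, 15.5% with the GC trend and 7.43% with both. These counts of 9 members are a description beside those calls. Library size only gave 859 genes lower, the length trend 1282 higher, and the GC trend 2000 genes, 1007 of them higher. Both trends gave 958 genes (559 higher and 399 lower), and with the replicate block 1318 (790 higher and 528 lower). Where a library is left out, its group holds 1 library, assumed to vary like the other group. Without single libraries 1793 to 3939 genes were called, 1266 to 2254 higher and 527 to 1685 lower. The lowest came without fructose replicate 2, and without fructose replicate 1 the genes lower were 892. The cause was not tested.

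Scaling to members called 2119 genes for Tbp (18 lower, and 0 of the qPCR targets lower), 1909 for Actb (84 lower), 1924 for B2m (21 lower), 1578 for Gusb (160 lower), 5186 for Hprt (3842 lower), 4519 for Ppia (4457 higher and 62 lower), 38 for Tfrc (34 higher and 4 lower) and 4117 for Ywhaz (2502 lower), with 462 lower for Polr2a and 201 for the mean of 9 members.

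Log2 fold changes of 8 members turned sign, Hprt from higher to called lower with the GC trend removed and the others mostly with small values. Gusb was -0.0033 by DESeq2, -0.0035 with DESeq2 size factors, -0.19 scaled to Hprt, -0.035 to Tfrc and -0.089 to Ywhaz. Hprt was -0.41 and Ywhaz -0.23 with the GC trend removed, -0.16 and -0.11 with both trends removed, with the replicate block also. Ywhaz was -0.10 scaled to Hprt. Actb was 0.0017 with the length trend removed, 0.027 with both and 0.028 with the block, 0.12 scaled to B2m, 0.016 to Polr2a, 0.21 to Ppia and 0.16 to Tbp. B2m was 0.054 with the length trend removed, 0.11 scaled to Ppia and 0.049 to Tbp. Polr2a was 0.088 scaled to B2m, 0.20 to Ppia and 0.13 to Tbp. Tbp was 0.058 scaled to Ppia. Tfrc was 0.025 with library size only, 0.017 with the replicate block, 0.079 scaled to Actb, 0.20 to B2m, 0.075 to Polr2a, 0.26 to Ppia, 0.25 to Tbp and 0.057 to the mean of 9 members. Without single libraries, Actb ran from -0.18 to 0.0075, Gusb from -0.12 to 0.15 and Tfrc from -0.39 to 0.44.

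The replicate block called 3558 genes, Ppia among them, and changed no member's call. Same-numbered libraries had a correlation of deviations over genes of -0.027. This single value showed no pairing by number, and it cannot exclude one that touches few genes. Counts of 225 to 312 limit the precision of Tbp.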
